A study of Mus musculus with 36 samples.

Results

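The expression of 6 genes of plasminogen activation, Plg, Plau, Plat, Plaur, Serpinf2 and Serpine2, was followed in the livers of 36 mice. These genes were chosen by symbol, and all 6 were found among the 24421 genes that were counted. RNA-seq compared mice injected subcutaneously with Fc(mML1)B3 or with Fc, in an experiment on a high-fat diet (HFD) and in another on a standard diet. Fc(mML1)B3 is the Fc part of an antibody with a grafted macrocyclic peptide that binds the receptor Met, which makes it a mimetic of hepatocyte growth factor, and Fc is the same carrier without the peptide. All mice were male C57BL/6J, 7 weeks old at purchase, and all had first been fed for 12 weeks with CDAHFD, a high-fat diet without choline, which induces steatohepatitis with fibrosis. Under the HFD, 10 mice were given Fc at 4.3 mg/kg and 10 were given Fc(mML1)B3 at 5 mg/kg, weekly over 2 weeks. Under the standard diet, 9 mice were given Fc and 7 Fc(mML1)B3, at these doses, on days 1, 4 and 7 of 10 days. Each mouse gave 1 library. Diet goes with experiment, number of doses, days of treatment and the number series of the libraries, so that these cannot be told apart, and a comparison of diets is one of whole experiments.

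Plasminogen is a zymogen that hepatocytes secrete into plasma, where it is cut to plasmin, the protease that dissolves fibrin and also attacks matrix proteins. It is activated by urokinase (uPA, encoded by Plau), which acts mostly on cell surfaces through its receptor (Plaur), and by tissue-type plasminogen activator (tPA, encoded by Plat), which works mostly on fibrin. Serpinf2 encodes alpha2-antiplasmin, the main inhibitor of plasmin in plasma, and Serpine2 encodes protease nexin-1, a serpin of tissues that inhibits thrombin, uPA, tPA and plasmin. In fibrosing liver the system is known both for clearing fibrin and for its part in matrix turnover, and its activity is set by proteins rather than by RNA alone.

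Libraries held 14949035 to 28466853 reads on genes. Values are given as CPM, reads of a gene scaled to the size of the library with TMM factors. A gene was called at an adjusted p below 0.05 in the quasi-likelihood test of edgeR, adjusted by Benjamini-Hochberg over all genes tested. All 6 genes passed the filter on low counts in every fit. Summed markers of hepatocytes lay between 68941 and 141435 CPM in all mice, as the label of liver implies. No exon of the 6 genes overlaps an exon of another gene in the annotation used for counting, so their reads could be assigned without strand.

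The 6 genes fell into 2 strongly and 4 weakly expressed ones. Per kilobase of exon, Plg, on chromosome 17 from 12378609 to 12419384 of mm10, was the highest in every group, with 726 ± 120 CPM per kilobase (SD, n = 10) in Fc mice under the HFD. Serpinf2, on chromosome 11 from 75431736 to 75439501, followed with 339 ± 57.8 CPM per kilobase (SD, n = 10), and in each of the 36 mice Plg stood above Serpinf2 and Serpinf2 above all others. Serpine2, on chromosome 1 from 79794321 to 79858665, came next with 9.90 ± 3.72 CPM per kilobase (SD, n = 10). Plaur, on chromosome 7 from 24462500 to 24475873, and Plau, on chromosome 14 from 20836662 to 20843388, were alike at 4.09 ± 1.40 and 4.08 ± 1.29 CPM per kilobase (SD, n = 10), and their order changed between groups. Plat, on chromosome 8 from 22757722 to 22782848, was the lowest of the 6 in all 4 groups, with 2.30 ± 0.838 CPM per kilobase (SD, n = 10) in the same mice. The depth behind these levels differs accordingly, since Plg rested on 27695 to 65858 reads per library and Plat on 26 to 264.

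**Figure D1:**
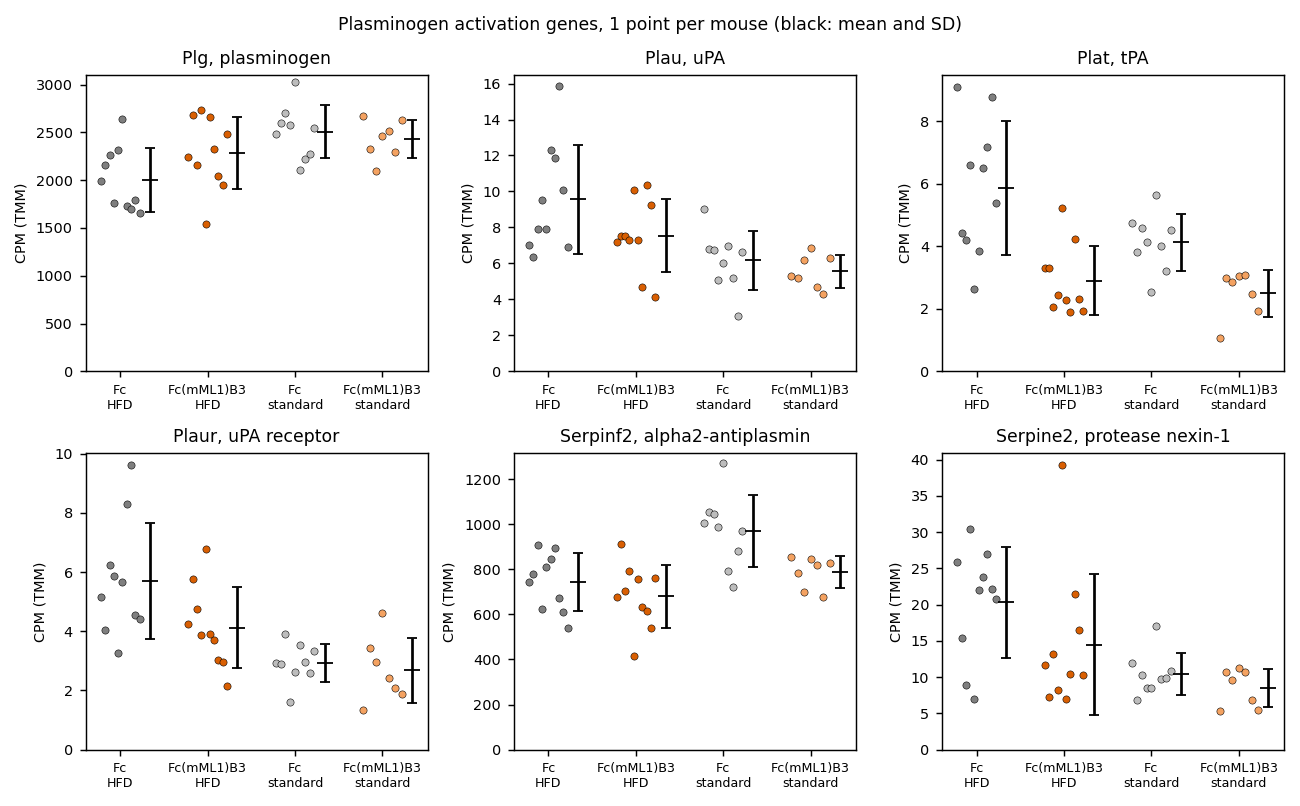
CPM after TMM scaling (y axis, linear and from 0) of the 6 genes in each mouse of the 4 groups (x axis), 1 point per mouse, with the mean and SD in black. Plat is lower in the Fc(mML1)B3 groups than in the Fc groups under both diets, Plg and Serpinf2 are the strongly expressed genes, and 1 Fc(mML1)B3 mouse under the HFD stands at 39.2 CPM for Serpine2.

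The study asked how the Met agonist changes the steatohepatitic liver, and among these 6 genes the change that passed the test under both diets was in Plat. Under the HFD, 1 of the 6 genes was called, Plat, which was lower. For comparison, 14.8% of the 13299 genes tested were called in this comparison, and 6.68% were called lower. Under the standard diet, 2 of the 6 were called, Plat and Serpinf2, both lower. There the share over 13570 genes was 16.1% in either direction and 7.55% lower. The median log2 fold change of the 6 genes was -0.39 under the HFD, and -0.22 in the standard diet experiment, beside medians of -0.01 and -0.01 over all genes tested. With only 6 genes, 1 or 2 calls are not far from these shares.

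Plat, which encodes tPA, fell with Fc(mML1)B3 under both diets. In Fc mice under the HFD its level ran from 2.62 to 9.10 CPM with a median of 5.95, and in Fc(mML1)B3 mice from 1.91 to 5.22 CPM with a median of 2.38. The Fc median exceeded the value of all 10 Fc(mML1)B3 mice, and 6 of them were lower than every Fc mouse, although the groups overlapped. The log2 fold change was -0.99 (SE 0.22, 95% interval -1.45 to -0.54), a decrease to 0.503 of the Fc level (adjusted p = 0.00332). In the standard diet experiment, Fc mice ranged from 2.52 to 5.64 CPM with a median of 4.13, and Fc(mML1)B3 mice from 1.08 to 3.10 CPM with a median of 2.85. Again the Fc median exceeded the value of all 7 Fc(mML1)B3 mice, and 8 of the 9 Fc mice lay above every Fc(mML1)B3 mouse. This was a log2 fold change of -0.73 (SE 0.19, adjusted p = 0.0114), or 0.603 of the Fc level.

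Under the HFD, the names of the Fc libraries belong to 1 number series and those of the Fc(mML1)B3 libraries to another 2, so that series and protein cannot be told apart there in any fit. With only the 4 Fc(mML1)B3 libraries of the second series, the log2 fold change of Plat was -1.03 (adjusted p = 0.0407), and with only the 6 of the third series it was -0.95 (adjusted p = 0.0305). For the standard diet, 11 libraries share 1 number series, 4 with Fc and 7 with Fc(mML1)B3. Among these alone, Plat had a log2 fold change of -0.80 with an adjusted p of 0.0541, above the threshold. With replicate number as a block it was -0.78 under the standard diet (adjusted p = 0.0573), also above it. The clock gene Arntl also moved with the protein, by 3.98 on the log2 scale under the HFD (adjusted p = 1.08e-08) and by -1.05 under the standard diet (adjusted p = 0.0108). Dbp, another clock gene, differed by -3.31 under the HFD (adjusted p = 5.38e-07) and by 0.14 under the standard diet (adjusted p = 0.625), and the hour of collection is not given in the sources used here. The part of the clock in these results was not tested.

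Serpinf2, the inhibitor of plasmin made by hepatocytes, was called with Fc(mML1)B3 under the standard diet only. Its response was not shown to differ between the diets (interaction of protein and diet -0.17 on the log2 scale, adjusted p = 0.616). Fc mice ranged from 723 to 1273 CPM with a median of 988, and Fc(mML1)B3 mice from 675 to 853 CPM with a median of 819. Each of the 7 Fc(mML1)B3 mice was below the Fc median, 7 of the 9 Fc mice lay above every Fc(mML1)B3 mouse, and the others overlapped. The log2 fold change was -0.31 (SE 0.09, adjusted p = 0.0284), a decrease to 0.809 of the Fc level. Within the 11 libraries of 1 number series the log2 fold change was only -0.10 (adjusted p = 0.534), so the call depended on the Fc libraries of the other series. It was also lost without Fc(mML1)B3 mouse 3 (log2 fold change -0.28, adjusted p = 0.0558) and without Fc(mML1)B3 mouse 6 (log2 fold change -0.27, adjusted p = 0.0682). With replicate number as a block the log2 fold change was -0.31 with an adjusted p of 0.0546, above the threshold. Under the HFD the levels overlapped widely, at 541 to 910 CPM in Fc mice and 415 to 911 CPM in Fc(mML1)B3 mice. There the log2 fold change was -0.12 with a 95% interval of -0.37 to 0.14.

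Serpine2, the tissue serpin of the group, was not called under either diet, and 1 mouse decided its value under the HFD. Fc mice ranged from 6.96 to 30.4 CPM with a median of 22.1, and Fc(mML1)B3 mice from 7.01 to 39.2 CPM with a median of 11.1. Below the Fc median lay 9 of the 10 Fc(mML1)B3 mice, and mouse 5 stood above every Fc mouse. The log2 fold change over all mice was -0.47 (SE 0.29, adjusted p = 0.282). Without mouse 5 it was -0.76 (adjusted p = 0.029), and the same omission took Plaur from -0.45 to -0.55 on the log2 scale (adjusted p = 0.0448) and the number of genes called from 1972 to 2848. With only the 4 libraries of the second series Serpine2 had a log2 fold change of -0.97 (adjusted p = 0.0703), and with the 6 of the third series, which include mouse 5, it was -0.20 (adjusted p = 0.762). On the standard diet, Fc mice had 6.88 to 17.1 CPM and Fc(mML1)B3 mice 5.29 to 11.2 CPM, with a log2 fold change of -0.29 and a 95% interval that reached above 0 (adjusted p = 0.304).

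Plg itself, the zymogen, was not called with Fc(mML1)B3 under either diet. Under the HFD, it ranged from 1655 to 2641 CPM with a median of 1891 in Fc mice and from 1541 to 2736 CPM with a median of 2280 in Fc(mML1)B3 mice. Although 9 of the 10 Fc(mML1)B3 mice were above the Fc median, the groups overlapped, and the log2 fold change was 0.20 (SE 0.11, adjusted p = 0.24). With the standard diet it was -0.05 with a 95% interval of -0.20 to 0.10, the narrowest interval among the 6 genes. Under the HFD the interval reached from -0.03 to 0.44.

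Plau, which encodes uPA, and Plaur, its receptor, were not called with Fc(mML1)B3 either. Under the HFD, Plau ranged from 6.35 to 15.9 CPM in Fc mice and from 4.15 to 10.4 CPM in Fc(mML1)B3 mice, with medians of 8.71 and 7.41, and had a log2 fold change of -0.33 (SE 0.17, adjusted p = 0.209). Plaur ranged from 3.26 to 9.61 CPM in Fc mice and from 2.15 to 6.78 CPM in Fc(mML1)B3 mice, with medians of 5.40 and 3.90, and had a log2 fold change of -0.45 (SE 0.20, adjusted p = 0.134). Below the Fc median were 8 of the 10 Fc(mML1)B3 mice for Plaur and 7 for Plau. On the standard diet the log2 fold changes were closer to 0, at -0.16 for Plau (95% interval from -0.49 to 0.18) and -0.13 for Plaur (95% interval from -0.57 to 0.31).

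**Figure D2:**
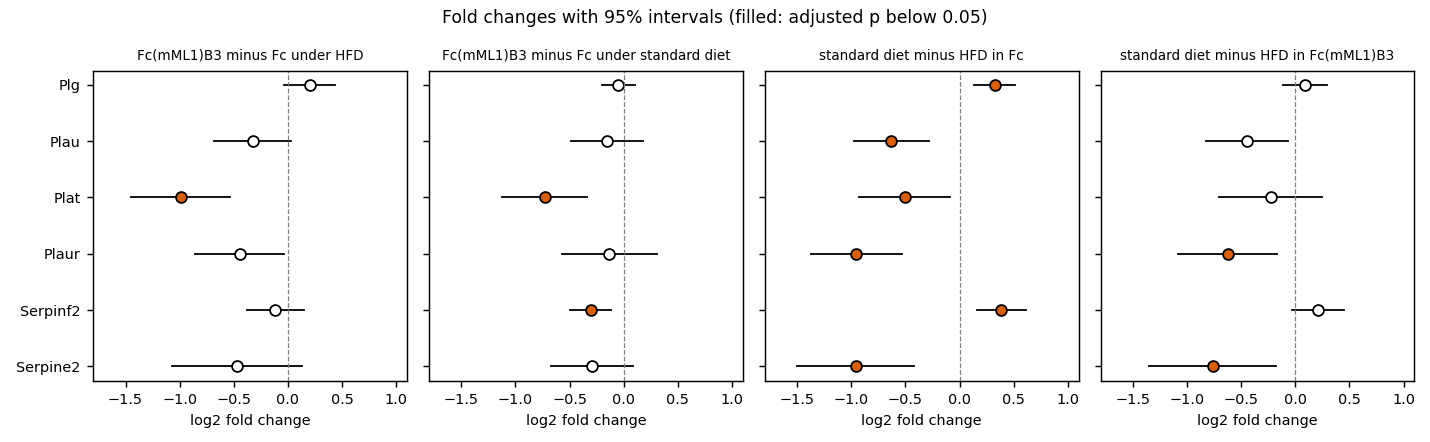
Log2 fold changes (x axis) of the 6 genes (y axis) in the 4 comparisons of groups, as points with 95% intervals, filled where the adjusted p was below 0.05. Plat is the gene filled in both comparisons of Fc(mML1)B3 with Fc, and all 6 genes are filled in the comparison of diets in Fc mice.

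A difference between the experiments in the response to Fc(mML1)B3 was tested with the interaction of protein and diet over all 36 libraries. None of the 6 genes was called, by edgeR, by DESeq2 or by limma-voom, and at an unadjusted p below 0.05 edgeR and DESeq2 gave 0 of them and limma-voom gave 1, whereas 9.06% of all 14105 genes tested were called. For Plat the interaction was 0.28 on the log2 scale (SE 0.31), with a 95% interval too wide to show that its fall was alike under both diets. The smallest p of the 6 genes, 0.101, was that of Plg, with an interaction of -0.23.

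Between the experiments, all 6 genes differed in Fc mice. Plg and Serpinf2, the plasma proteins, were higher under the standard diet, and Plau, Plat, Plaur and Serpine2 were lower. Calls were common here, since 47.9% of the 14105 genes tested were called in Fc mice, 23.3% higher and 24.6% lower. In Fc(mML1)B3 mice only Plaur and Serpine2 were called, both lower, beside 38.5% of all genes in either direction and 17.9% lower. The remaining 4 genes had the sign seen in Fc mice in that comparison, but since the interaction was not called for any gene, the responses of Fc and Fc(mML1)B3 mice were not shown to differ.

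Plaur and Serpine2 had the lowest ratios between the experiments. Plaur ranged from 3.26 to 9.61 CPM in Fc mice under the HFD and from 1.60 to 3.90 CPM under the standard diet. Of the 10 HFD mice 9 lay above every standard diet mouse, and the log2 fold change was -0.95 (SE 0.21, adjusted p = 0.000274). In Fc(mML1)B3 mice it went from a median of 3.90 CPM to one of 2.42 CPM (log2 fold change -0.62, adjusted p = 0.0262), a call that was lost without any of 4 mice, among them Fc(mML1)B3 mouse 1 under the standard diet (adjusted p = 0.0739). Serpine2 fell in Fc mice from a median of 22.1 CPM to one of 9.91 CPM, with a log2 fold change of -0.96 (SE 0.27, adjusted p = 0.00328). In Fc(mML1)B3 mice its log2 fold change was -0.76 (adjusted p = 0.0347), but -0.47 without mouse 5 of the HFD (adjusted p = 0.136), and leaving out another 4 mice singly also ended the call.

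Because Plaur and Serpine2 were called between the experiments with both proteins, the sequences before their transcription starts are shown, from RefSeq on GRCm38.p6, for 250 bases each. Capitals mark matches to the GC box GGGCGG and to the AP-1 motif TGANTCA on either strand, adjacent GC boxes overlap in places, and no GC box overlaps the AP-1 motif. The stretch of Plaur, at chr7:24462233-24462482 on the plus strand, and that of Serpine2, at chr1:79858666-79858915 on the minus strand, read 5′ to 3′ as follows.
Plaur: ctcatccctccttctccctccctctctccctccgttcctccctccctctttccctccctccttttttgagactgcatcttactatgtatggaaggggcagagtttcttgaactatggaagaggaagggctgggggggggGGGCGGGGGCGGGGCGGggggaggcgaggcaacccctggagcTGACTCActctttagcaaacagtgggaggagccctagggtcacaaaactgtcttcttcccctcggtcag
Serpine2: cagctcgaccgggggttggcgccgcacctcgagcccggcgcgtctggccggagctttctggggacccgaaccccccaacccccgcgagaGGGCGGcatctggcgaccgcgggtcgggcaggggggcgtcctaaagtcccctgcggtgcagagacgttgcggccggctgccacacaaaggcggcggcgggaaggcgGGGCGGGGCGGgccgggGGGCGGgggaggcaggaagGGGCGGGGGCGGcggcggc
The script found 3 GC boxes and 1 AP-1 motif for Plaur, and 6 GC boxes and no AP-1 motif for Serpine2. Over the same 250 bases, 32.7% of 32851 promoters held a GC box and 6.75% an AP-1 motif. The TATA box TATAAA, held by 12.4% of promoters, was in neither. These matches describe the letters and are not sites shown to be bound. The promoter of Serpinf2 held none of the 3 motifs, and promoters of Plg, Plau and Plat were not analysed here.

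The other 4 genes differed less between the experiments. Plau went in Fc mice from a median of 8.71 CPM under the HFD to one of 6.61 CPM under the standard diet (log2 fold change -0.63, SE 0.17, adjusted p = 0.00293). In Fc(mML1)B3 mice Plau had a log2 fold change of -0.44 with an adjusted p of 0.0572, above the threshold, and 3 other ways of fitting placed it below 0.05. Plat was lower in Fc mice by a log2 fold change of -0.51 (SE 0.21, adjusted p = 0.0427), a call that ended in 11 of the 36 fits without 1 library, with an adjusted p of 0.105 without Fc mouse 1 of the HFD. Plg rose in Fc mice by 0.32 on the log2 scale (SE 0.09, adjusted p = 0.00503), with all 9 standard diet mice above the HFD median. Serpinf2 rose by 0.38 (SE 0.11, adjusted p = 0.00461), with 6 of the 9 standard diet mice above every HFD mouse.

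The mice also differed from one another within groups. After the group means were removed, 11 of the 15 pairs of genes were correlated over the 36 mice at an adjusted p below 0.05 (Pearson, permutation of mice within groups, 100000 resamples, 2-sided), 7 positively and 4 negatively. Plg and Serpinf2 went together with r = 0.85 and rho = 0.85 (permutation p = 1e-05 for both, the smallest possible, adjusted p = 7.5e-05 and 5e-05). Without the 2 mice farthest from the median of Plg, r was 0.79, and within the 4 groups it lay between 0.67 and 0.95. Plat and Serpine2 were correlated at r = 0.73 and rho = 0.74 (permutation p = 1e-05 for both, adjusted p = 7.5e-05 and 5e-05), at 0.73 without the 2 farthest mice and between 0.66 and 0.88 within groups. Plau and Plaur, the protease and its receptor, had r = 0.52 and rho = 0.52 (permutation p = 0.0016 and 0.0024, adjusted p = 0.0034 and 0.006), and 0.48 without the 2 farthest mice.

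Of the 8 pairs that join Plg or Serpinf2 with one of the other 4 genes, 4 were negatively correlated at an adjusted p below 0.05, those with Plat and Serpine2. The 4 pairs with Plau and Plaur did not pass, at r = -0.21 for Plg and Plau, -0.31 for Plg and Plaur and -0.06 for Serpinf2 with either (adjusted p = 0.3, 0.11, 0.76 and 0.76). Plg against Serpine2 gave r = -0.74 and rho = -0.73 (permutation p = 2e-05 and 1e-05, adjusted p = 1e-04 and 5e-05), with r = -0.67 without the 2 farthest mice. Plg against Plat gave r = -0.61 and rho = -0.60 (permutation p = 0.00029 and 0.00046, adjusted p = 0.00087 and 0.0014). Without the 2 farthest mice it was -0.56. Without TMM scaling these 2 correlations were weaker, at -0.51 and -0.47. Serpinf2 against Serpine2 gave r = -0.63 (permutation p = 0.00023, adjusted p = 0.00086), and -0.44 without TMM scaling. Within the 4 groups that pair lay between -0.92 and -0.07. Serpinf2 against Plat gave r = -0.44 (permutation p = 0.011, adjusted p = 0.018), and -0.32 without TMM scaling. Among all 14104 other genes ordered by r with Plg, Serpinf2 stood at rank 10, and among those ordered by r with Serpinf2, Plg stood at rank 6.

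**Figure D3:**
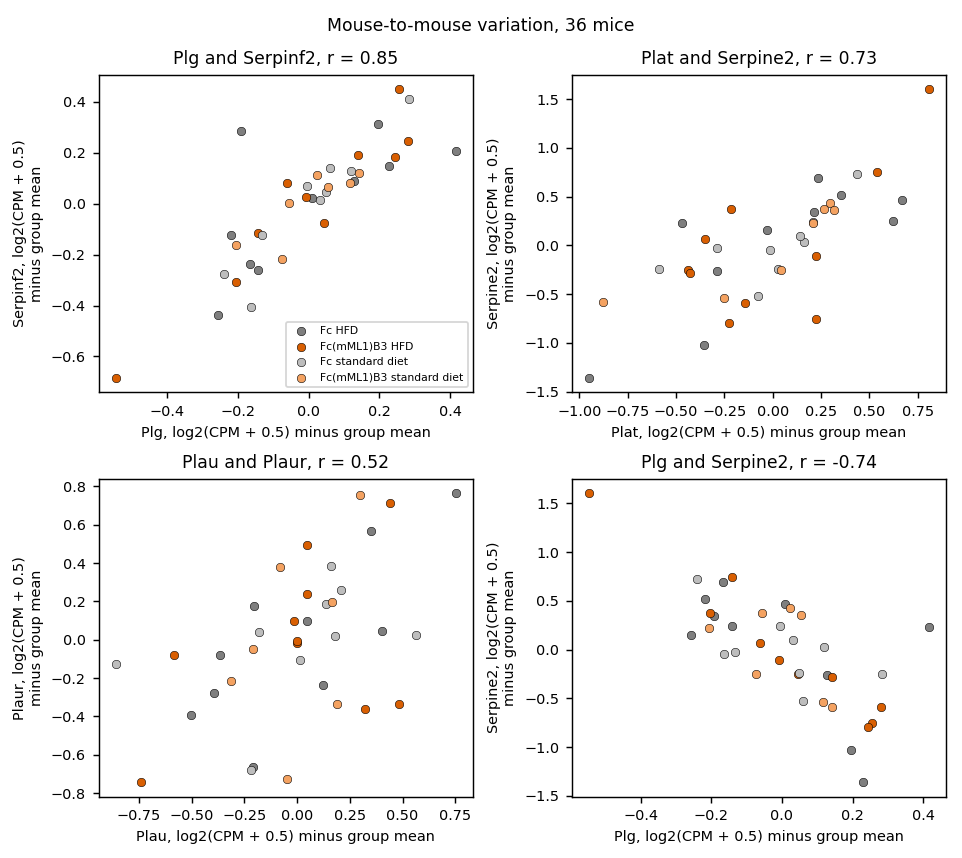
Deviation of each mouse from its group mean, in log2(CPM + 0.5), for 4 pairs of genes (x and y axes), 1 point per mouse and colours for the 4 groups. Plg and Serpinf2 rise together with r = 0.85, Plat and Serpine2 with r = 0.73 and Plau and Plaur with r = 0.52, whereas Serpine2 falls as Plg rises, with r = -0.74.

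The genes outside the group that varied most like each of the 6 were named by the same measure, Pearson's r over 36 mice with group means removed, among 14099 genes. For Plg these were Hrg, a plasma protein that binds plasminogen (r = 0.90), Itih1 (r = 0.90) and Ldhd (r = 0.88). Serpinf2 was nearest to Serpina3n, F7 and F10, with r between 0.88 and 0.89, F7 and F10 being coagulation factors of hepatocytes. Serpine2 was nearest to Lum (r = 0.96), Timp2 (r = 0.95) and Itga8 (r = 0.94), of which Lum encodes the matrix proteoglycan lumican. Plat was nearest to Cdh11 (r = 0.86), Chst11 (r = 0.86) and Col6a1 (r = 0.84), a cadherin of mesenchymal cells, a chondroitin sulfotransferase and a chain of collagen VI. Plau was nearest to Syk (r = 0.80), Sirpa (r = 0.78) and Laptm5 (r = 0.78), all genes of leukocytes. Plaur was nearest to Tnfrsf1b (r = 0.85), Cd68 (r = 0.79) and Fabp5 (r = 0.79), of which Cd68 is a macrophage marker.

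Summed markers of 12 cell types gave a like picture in part. In bulk liver, fewer cells of a type and less RNA per cell cannot be told apart. Of 72 relations between the 6 genes and the 12 sums, with group means removed over 36 mice, 33 had an adjusted p below 0.05 by permutation. Serpine2 followed stellate cell and fibroblast markers with r = 0.91 and rho = 0.92 (permutation p = 1e-05 for both, adjusted p = 1e-04 for both), with r = 0.88 without the 2 farthest mice and at least 0.90 within every group. It also followed cholangiocyte markers (r = 0.92) and lipid-associated macrophage markers (r = 0.89), and all 3 sums therefore moved with this gene. Plat followed stellate cell markers with r = 0.78 and rho = 0.79 (permutation p = 1e-05 for both, adjusted p = 1e-04 for both), and r was 0.78 without the 2 farthest mice. It was also positive with lipid-associated macrophage (r = 0.74) and cholangiocyte markers (r = 0.67), and negative with hepatocyte (r = -0.51) and endothelial markers (r = -0.53), all with an adjusted p below 0.05. Plaur and Plau followed lipid-associated macrophage markers most closely, with r = 0.66 and r = 0.58 (permutation p = 3e-05 and 0.00043, adjusted p = 2e-04 and 0.0017). Their rho was 0.60 and 0.63 (permutation p = 0.00047 and 0.00012, adjusted p = 0.0019 and 0.00062), and r without the 2 farthest mice was 0.63 and 0.54. With macrophage and Kupffer cell markers, a list that includes Cd68, r was only 0.15 for Plaur and 0.33 for Plau. Neither relation passed (permutation p = 0.39 and 0.077, adjusted p = 0.51 and 0.13). Plg and Serpinf2 were positive with hepatocyte markers, with r = 0.60 and r = 0.73 (permutation p = 0.0016 and 4e-05, adjusted p = 0.0055 and 0.00022). Their rho was 0.54 and 0.68 (permutation p = 0.0032 and 9e-05, adjusted p = 0.01 and 5e-04), and r without the 2 farthest mice was 0.44 and 0.63. With endothelial markers Plg had r = 0.70, above its value with hepatocyte markers, and Serpinf2 reached 0.63 there. Serpinf2 was also positive with macrophage and Kupffer cell markers (r = 0.59) and with pancreatic acinar markers (r = 0.56). Plg had r = 0.44 with macrophage and Kupffer cell markers, and all 3 relations had an adjusted p below 0.05. The relation to hepatocyte markers was thus not particular to them.

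**Figure D4:**
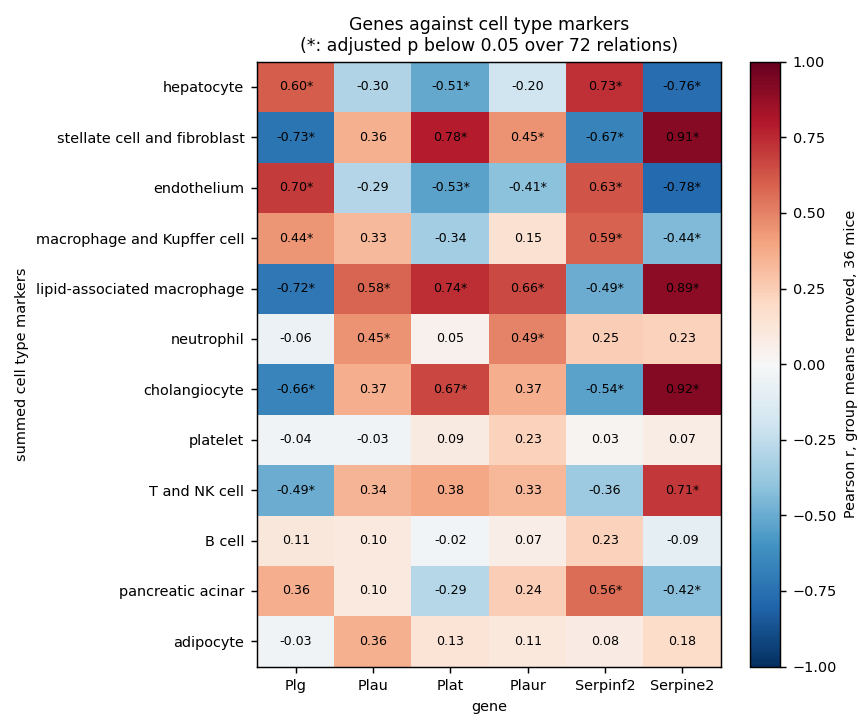
Pearson's r, with group means removed over 36 mice, between each of the 6 genes (columns) and the summed markers of 12 cell types (rows), with an asterisk where the adjusted p over the 72 relations was below 0.05. Serpine2 and Plat are positive with stellate cell and fibroblast markers at 0.91 and 0.78, and Plg and Serpinf2 are negative there at -0.73 and -0.67.

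Some of these markers also moved with the groups. Under the HFD, where Plat fell, 4 of 6 neutrophil markers (median log2 fold change -0.98) and 2 of 4 B cell markers (median -0.62) were lower with Fc(mML1)B3, beside 6.68% of all genes. Of 5 hepatocyte markers tested, 1 was higher, beside 8.14% of all genes. The summed neutrophil markers ran there from 14.4 to 77.2 CPM in Fc mice and from 11.7 to 21.8 CPM in Fc(mML1)B3 mice. Of 8 stellate cell and fibroblast markers, none was called with Fc(mML1)B3 under the HFD and 2, Pdgfrb and Des, were called lower under the standard diet, with median log2 fold changes of -0.26 and -0.27. Their summed level ran from 760 to 1385 CPM in Fc mice and from 736 to 1539 CPM in Fc(mML1)B3 mice under the HFD, and from 627 to 953 CPM and from 541 to 722 CPM under the standard diet. The fall of Plat was larger than that median under both diets, a difference in size that was not tested. Of 6 lipid-associated macrophage markers, 3 were lower with Fc(mML1)B3 under the standard diet, where the 6 had a median of -0.37 on the log2 scale. None was called under the HFD, where all 6 had log2 fold changes below 0 (median -0.42). Also, 1 of 5 cholangiocyte markers was lower under the standard diet, where 7.55% of all genes were. Between the experiments, 5 of the 8 stellate cell markers and 5 of the 6 lipid-associated macrophage markers were lower under the standard diet in Fc mice, and 4 and 3 in Fc(mML1)B3 mice, beside 24.6% and 17.9% of all genes. In Fc mice 4 of 4 T and NK cell markers, 3 of 4 B cell markers, 2 of 6 neutrophil markers and 2 of 5 cholangiocyte markers were also lower. In Fc(mML1)B3 mice 1, 0, 1 and 2 of them were lower, and 1 B cell marker was higher, beside 20.7% of all genes higher. The medians there were 0.43 for B cell and 0.38 for neutrophil markers on the log2 scale. For the interaction, 3 of 4 B cell markers were called higher (median 1.04), beside 4.66% of all genes. Of 5 hepatocyte markers tested, 2 were higher under the standard diet in Fc mice, beside 23.3% of all genes, and all 5 were above 0 (median 0.21). In Fc(mML1)B3 mice 1 of them was higher (median 0.17), beside 20.7% of all genes. No marker of these 7 cell types was at 0 in any group. Their part in the differences of the 6 genes was not tested.

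Around these 6 genes, 33 further genes of the system were followed in 6 roles, of which 28 were tested within each diet and 29 across the diets. With Fc(mML1)B3 under the HFD, 1 was higher and 1 lower by edgeR, beside 8.14% and 6.68% of all genes. Under the standard diet 6 were lower and none was higher, beside 7.55% and 8.56% of all genes. Their median log2 fold change was 0.06 under the HFD, and -0.10 in the standard diet experiment. Between the experiments, 8 were higher and 4 lower in Fc mice, and 5 higher and 7 lower in Fc(mML1)B3 mice, beside 23.3% higher and 24.6% lower, and 20.7% higher and 17.9% lower, of all genes. For the interaction 3 were lower, beside 4.4% of all genes.

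Among plasminogen receptors, Plgrkt, a membrane protein that binds plasminogen, fell with Fc(mML1)B3 under the HFD by a log2 fold change of -0.55 (SE 0.12, adjusted p = 0.00343). Its Fc mice had 8.20 to 13.7 CPM and its Fc(mML1)B3 mice 5.13 to 10.7 CPM, 6 of them below every Fc mouse. Anxa2 and S100a10, the subunits of the annexin A2 complex that binds both plasminogen and tPA, fell under the standard diet, by log2 fold changes of -0.39 (adjusted p = 0.0111) and -0.45 (adjusted p = 0.000472). S100a10 ranged from 73.0 to 102.6 CPM in Fc mice and from 56.4 to 74.9 CPM in Fc(mML1)B3 mice, with 8 of the 9 Fc mice above every Fc(mML1)B3 mouse. Its interaction of protein and diet was -0.52 on the log2 scale (adjusted p = 0.0107). Hrg, the most strongly expressed of this role at 581 CPM per kilobase on average over the groups, was not called with Fc(mML1)B3 by edgeR, with log2 fold changes of 0.25 and 0.14, whereas limma-voom called it higher under the HFD (adjusted p = 0.043). Eno1 and Clec3b, like Serpinb2 and A2m among the inhibitors, had too few reads to be tested, and Eno1 shares 1649 exonic bases with Eno1b, so that its reads could not be assigned.

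Of the 7 genes of fibrin, its crosslinking and thrombin, 4 were lower with Fc(mML1)B3 under the standard diet, beside 7.55% of all genes, and 3 were not called, F2, F13a1 and F13b, at log2 fold changes of 0.05, -0.06 and 0.07. Fga, Fgb and Fgg encode the 3 chains of fibrinogen, and all were lower with Fc(mML1)B3, by log2 fold changes of -0.52 (adjusted p = 0.00782), -0.43 (adjusted p = 0.02) and -0.45 (adjusted p = 0.0145). Fgb, the strongest of the role at 2833 CPM per kilobase, ranged from 4463 to 8886 CPM in Fc mice and from 3482 to 5163 CPM in Fc(mML1)B3 mice, 6 of the 7 below every Fc mouse. Under the HFD the 3 genes had log2 fold changes of 0.11, 0.03 and 0.15 and were not called, and the interaction was called for Fga (-0.62, adjusted p = 0.0373), though not with the replicate block, and was not called by edgeR for Fgb (adjusted p = 0.178) or Fgg (adjusted p = 0.0528). DESeq2 (adjusted p = 0.0232), limma-voom (adjusted p = 0.0124) and edgeR with DESeq2 size factors (adjusted p = 0.0485) called it for Fgg. The 3 calls were not made among the 11 libraries of 1 number series, and whether through smaller changes or fewer mice was not tested. Thbd, which encodes thrombomodulin of endothelium, rose under the HFD (log2 fold change 0.44, adjusted p = 0.032) and fell under the standard diet (log2 fold change -0.42, adjusted p = 0.0038), with an interaction of -0.84 (adjusted p = 0.00137). Under the HFD Thbd was not called with the 4 libraries of series 2 or with the replicate block. Its call under the standard diet was also not made among the 11 libraries, where Anxa2 and S100a10 kept theirs (adjusted p = 0.0406 and 0.00468). F13b was called higher under the HFD by limma-voom (log2 fold change 0.27, adjusted p = 0.0225), though not by edgeR.

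In the other roles edgeR called no gene with Fc(mML1)B3. Vldlr, a receptor of the clearance role, was called lower under the HFD by DESeq2 (adjusted p = 0.0455) and limma-voom (adjusted p = 0.0199), and Igf2r lower under the standard diet by limma-voom (adjusted p = 0.0253). Vtn, which encodes the adhesive plasma protein vitronectin, led the clearance and binding genes at 1503 CPM per kilobase and had log2 fold changes of 0.14 and 0.05. Pzp, a broad protease inhibitor of mouse plasma, led the inhibitors at 1069 CPM per kilobase and was not called with Fc(mML1)B3, but it was higher under the standard diet by 0.77 in Fc mice (adjusted p = 5.65e-08) and by 0.58 in Fc(mML1)B3 mice (adjusted p = 2.81e-05). A stretch of 303 bases of its exons overlaps Gm10069 on the opposite strand. Kng1, the kininogen gene that led the contact-phase role at 840 CPM per kilobase, had log2 fold changes of 0.07 and 0.06. Serpina5, a serpin that inhibits uPA among other proteases, did not pass the filter within either diet. It had 0 to 0.248 CPM (0 to 4 reads) in Fc mice under the HFD. Fc(mML1)B3 mice had 0.272 to 0.959 CPM (4 to 22 reads) there. With no filter on low counts Serpina5 was called higher under the HFD (log2 fold change 2.75, SE 0.44, adjusted p = 0.000186). A call on so few reads, made only without the filter, supports nothing.

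The diet comparison called several of these genes in both protein groups, beside 47.9% of all genes in Fc mice and 38.5% in Fc(mML1)B3 mice. Hgf, the growth factor gene related to plasminogen, was higher under the standard diet by 0.85 in Fc mice (adjusted p = 0.000116) and by 0.78 in Fc(mML1)B3 mice (adjusted p = 0.000949), and Mst1, its relative with 74.4 CPM per kilobase, was not called in any comparison. Lrp1, the endocytic receptor for complexes of uPA and tPA with serpins, was higher by 0.43 and 0.41 (adjusted p = 2.53e-06 and 2.14e-05), and Igf2r by 0.56 and 0.57 (adjusted p = 7.51e-09 and 3.87e-08). Klkb1, which encodes plasma prekallikrein, was higher by 0.61 and 0.58 (adjusted p = 4.47e-08 and 5.2e-07). Anxa2 was lower under the standard diet by log2 fold changes of -0.64 and -0.76 (adjusted p = 0.00026 and 0.000124), and Plgrkt by -0.80 and -0.32 (adjusted p = 3.1e-07 and 0.0356), the latter not called by limma-voom or with the replicate block. In Fc(mML1)B3 mice, Thbd (log2 fold change -1.09, adjusted p = 4.23e-08) and S100a10 (log2 fold change -0.63, adjusted p = 5.52e-06) were lower as well, with all 7 standard diet mice below all 10 HFD mice for both. These groups did not overlap for Lrp1, Igf2r, Pzp and Klkb1 either, and the share over all genes was not determined. In Fc mice, Fga, Fgb and Fgg were higher under the standard diet by 0.66, 0.47 and 0.48 (adjusted p = 9.17e-05, 0.00402 and 0.00346), and in Fc(mML1)B3 mice they were not called, at 0.04, 0.03 and -0.11. Mrc2, a collagen receptor that associates with the uPA receptor, was lower by log2 fold changes of -0.73 and -0.88 (adjusted p = 0.00768 and 0.00458). St14, which encodes matriptase, was lower in Fc mice by a log2 fold change of -1.09 (adjusted p = 0.0118), and Hrg was lower in Fc(mML1)B3 mice by -0.30 (adjusted p = 0.0132). Serpina5, with medians of 0.618 and 0.212 CPM in Fc(mML1)B3 mice under the HFD and the standard diet, is among the 7 genes counted as lower, but it passed the filter only through the group where it was high, so its call supports nothing.

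**Figure D5:**
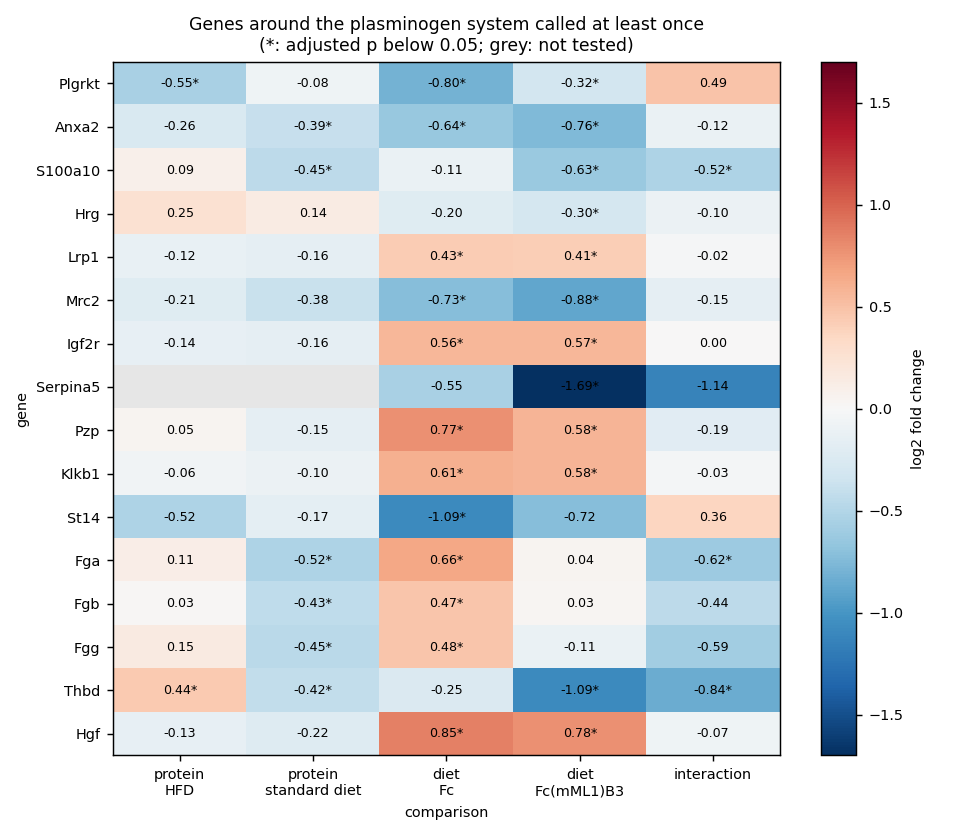
Log2 fold changes, by colour and printed value, of the 16 genes around the plasminogen system that were called in at least 1 comparison (rows), in the 4 comparisons of groups and the interaction (columns), with an asterisk for an adjusted p below 0.05 and grey where a gene was not tested. Fga, Fgb and Fgg are at -0.52, -0.43 and -0.45 with Fc(mML1)B3 under the standard diet and between 0.03 and 0.15 under the HFD, and Thbd has opposite signs under the diets, at 0.44 and -0.42.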

How the data were processed

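RNA of the liver of each of 36 mice was sequenced. Per the labels and the methods of the study, the authors trimmed reads with fastp, removed ribosomal RNA with Bowtie2 2.4.5, aligned to mm10 with STAR 2.7.10a and counted reads per gene with featureCounts of Subread 2.0.3. The deposited values are raw counts of single reads of pairs with both ends aligned, without strand, although the kit keeps it. Both ends of a fragment count, so counting error is larger than the counts alone imply.

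From these counts, edgeR 4.0.16 in R 4.3.3 (TMM, filterByExpr, quasi-likelihood test, adjustment over all genes tested) compared the proteins within each diet (13299 and 13570 genes) and the diets and the interaction in a model of 4 groups (14105 genes). Each SE was taken as the fold change on the log2 scale over the root of its F value. Correlations used log2(CPM + 0.5) minus group means. The test was checked on simulated counts. The alternatives were DESeq2 1.42.0, limma-voom (limma 3.58.1), DESeq2 size factors in edgeR, no filter, a replicate block, thresholds with a fold, number series and each library left out.

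Over 147 pairs of libraries within groups, the lowest chi-square, divided by its degrees of freedom, was 6.06, so no 2 libraries of a group were duplicates. The 6 genes, the 33 further genes and the markers were chosen with earlier results of these data known. Named were the 6 genes, the further genes called in a comparison, the strongest of each role and the 3 nearest in variation to each of the 6. Clock genes, Pdgfrb, Des, Vldlr, F2, F13a1 and F13b were named after their values were seen. Of 6 promoters, 3 matched in the RefSeq table. A gene of this system is not reported here.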

Additional observations from a re-analysis of the deposited data

Results flagged for a closer look

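Serpine2 had a mouse far above the rest in 2 groups. Among Fc(mML1)B3 mice of the HFD experiment, mouse 5 stood at 39.2 CPM and the next mouse at 21.4 CPM, a gap of 0.552 of the range of the group. In the Fc group under the standard diet, mouse 6 stood at 17.1 CPM and the next at 12.0 CPM, a gap of 0.498 of the range, both past the 95% limit of Dixon's test. Chance flags about 1 in 20 groups, and 24 groups of values, 6 genes in 4 groups, were examined. Mouse 5 also had the lowest Plg (1541 CPM) and Serpinf2 (415 CPM) and the highest Plat (5.22 CPM) and Plaur (6.78 CPM) of its group.

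For 3 of the 29 further genes tested, the interaction test of edgeR gave a response to Fc(mML1)B3 that differed between the experiments. Over all 14105 genes tested, 9.06% were called for the interaction, and 4.4% were called lower, as these 3 were. Thbd had an interaction of -0.84 on the log2 scale (adjusted p = 0.00137), Fga one of -0.62 (adjusted p = 0.0373) and S100a10 one of -0.52 (adjusted p = 0.0107). With the replicate block Fga was not called, and S100a10 and Thbd were (adjusted p = 0.014 and 0.00397). Plgrkt had a positive interaction, not called by edgeR (0.49, adjusted p = 0.0541) but called by DESeq2 (0.47, adjusted p = 0.0498) and limma-voom (0.59, adjusted p = 0.00683). For Thbd, all 10 Fc(mML1)B3 mice lay above the Fc median under the HFD and all 7 lay below it under the standard diet. Diet, doses and days of treatment cannot be told apart in these values.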

How the results depend on the processing

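For the log2 fold changes of the 6 genes, 164 of 180 values from other fits kept direction and side of the threshold, as did 833 of 864 values without 1 library. Direction turned in 3, none of them called: Serpinf2 under the HFD with the 4 libraries of series 2 (0.084), and Plg (0.083) and Plau (0.019) under the standard diet with the 11 libraries of series 2. The causes were not tested.

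Replicate numbers did not pair the mice, since same-numbered mice deviated together (r over 0.1) in 2 of 10, 0 of 7, 0 of 9 and 3 of 7 pairs. With the replicate block, Fc(mML1)B3 gave 1294 genes under the HFD (1 of the 33 further genes) and 1296 under the standard diet, where 0 of the 6 genes were called (2 at an unadjusted p below 0.05, Plat at an adjusted p of 0.0573 and Serpinf2 at 0.0546). Between diets, the block left 5 of the 6 in Fc mice (6424 genes called) and 1 of the 6 in Fc(mML1)B3 mice (5110 genes called).

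DESeq2 called 2274 genes and 4 further genes under the HFD, and 1446 genes and 5 further genes for the interaction. Limma-voom called 3039 genes and 5 further genes under the HFD, and 2026 genes and 5 further genes for the interaction. Between diets in Fc(mML1)B3 mice it called 5918 genes and 0 of the 6 (2 at an unadjusted p below 0.05, edgeR 2 and DESeq2 3 called). The 4 libraries of series 2 gave 705 genes and 1 further gene under the HFD, and the 11 of the standard diet gave 942 genes, 2 further genes and 0 of the 6 (2 at an unadjusted p below 0.05). With an adjusted p below 0.1 and a fold above 2, 178 genes were called under the HFD (0 further, 0 of the 6), and with an adjusted p below 0.05 and a fold above 1.5, 320 under the standard diet (0 further, 1 of the 6). Between diets the latter pair of thresholds, which the study did not set for these comparisons, called 2230 genes in Fc mice (3 of the 6), 1687 in Fc(mML1)B3 mice (6 further), and for the interaction 593.

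Without 1 library, the genes called ranged from 1555 to 2848 under the HFD, from 1730 to 2230 under the standard diet and from 1059 to 1540 for the interaction. The 6 genes gave 1 to 3, 1 to 2 and 0 to 0 calls there, and 5 to 6 and 0 to 3 between diets in Fc and Fc(mML1)B3 mice. The further genes gave 1 to 5, 6 to 8 and 2 to 5 calls. Of the 15 pairs, 10 were called without TMM and 10 without the 2 farthest mice. Genes with few reads, such as Plat with 26 reads at the lowest, limit the precision.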
